A study of Rattus norvegicus with 18 samples.

Results

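The genes described here encode subunits of the 3 nuclear RNA polymerases and of Mediator. They were chosen by name, as every row of the deposited expression table whose symbol began with Polr1, Polr2 or Polr3, or with Med followed by a digit. The rule found 57 of 32883 rows, 27 of them polymerase genes and 30 Mediator genes, and it used no measured value.

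RNA polymerase I makes the ribosomal RNA precursor, RNA polymerase II makes messenger RNA, and RNA polymerase III makes transfer RNA and the smallest ribosomal RNA. Each enzyme has its own large catalytic subunits, and some small subunits serve several of them. Mediator is a large complex that passes signals from DNA-bound activators to RNA polymerase II, and it is divided into a head, a middle, a tail and a detachable kinase module. In the kidney, as in other tissues, rapid induction of inflammatory genes depends on RNA polymerase II, which is recruited with Mediator and released from pausing near the start of genes.

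The tissue was the rat cortical collecting duct, the tubule segment whose principal cells reabsorb sodium and water and whose intercalated cells secrete acid or base. It was dissected from kidneys of pathogen-free male Sprague-Dawley rats 3 h after lipopolysaccharide (LPS), a bacterial outer membrane component that triggers innate immunity, or normal saline (Vehicle) was injected into the peritoneum. Each group held 3 numbered samples with 3 libraries each, 18 libraries in all, and the design text calls the samples paired. Neither the age of the rats, nor the dose, nor whether a numbered sample came from 1 animal is given in the sources used here. The p-values therefore reflect only how far these samples differed, which may be technical.

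Expression was given as TPM, transcript abundance scaled to a fixed library total, which corrects for transcript length and so allows levels of different genes to be compared. Between 11399 and 12704 genes per library reached 1 TPM. The TPM table keeps no read numbers, so the depth behind each value is unknown. The principal cell markers summed to 16010 to 17874 TPM in the Vehicle samples and to 8918 to 12476 TPM in the LPS samples. Of these 10 markers 7 were called lower, beside 22.2% of all tested genes. Under the median-ratio scaling and quantile normalization described below, 1 and 6 of them were called lower. The intercalated cell markers summed to 10005 to 10087 and to 7626 to 9442 TPM. Macrophage markers summed to 125 to 258 TPM in Vehicle and to 209 to 443 TPM in LPS. Of 9 macrophage markers 4 were called higher, beside 7.17% of all tested genes, and 1 (Csf1r) was called lower. Markers of other immune cells summed to 1.37 to 3.30 and to 3.23 to 79.4 TPM, the last from LPS sample 3, whose library 3 held 220 TPM and without which the mean was 9.09 TPM. Those of the distal convoluted and connecting tubule summed to 149 to 5305 and to 57.8 to 327 TPM. The 5305 TPM belonged to Vehicle sample 1, where Calb1 alone had 4943 TPM, and without its first library the sum was 2836 TPM. The part of these cell types in the results below was not tested. On the first principal component, which held 56.1% of the variance, the libraries of LPS sample 1 (11.6 to 21.2) lay between Vehicle (-63.1 to -42.9) and the other LPS libraries (62.1 to 74.8). In bulk tissue, fewer cells of a type and less RNA per cell cannot be told apart.

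The sequences of 2 start regions are shown, from Mediator genes that were called in opposite directions and whose promoters both held the letters described here. Of the 57 genes, 48 matched a promoter of RefSeq (build GRCr8, 250 bases before to 50 after the annotated start). The letters CCGGAAG, the core bound by ETS family factors, were searched on both strands and were present in 13 of the 48 genes (27.1%), against 8.75% of all 33469 promoters of the same length. Of these 13 genes 1 was called higher, 3 were called lower and 9 were not called. Among all 48 genes with a promoter 1 was called higher and 8 lower, beside 7.17% and 22.2% of all tested genes. Below are the 150 bases before each start, 5′ to 3′ on the gene's strand, with CCGGAAG or its complement in capitals. Med17 lies at chr8:20401994-20402143, minus strand, with matches that begin 98 and 67 bases before the start. Med31 lies at chr10:57338890-57339039, minus strand, with matches 36 and 17 bases before the start.
Med17: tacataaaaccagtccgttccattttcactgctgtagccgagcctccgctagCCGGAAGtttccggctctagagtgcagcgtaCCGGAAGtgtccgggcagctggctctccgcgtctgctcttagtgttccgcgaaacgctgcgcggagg
Med31: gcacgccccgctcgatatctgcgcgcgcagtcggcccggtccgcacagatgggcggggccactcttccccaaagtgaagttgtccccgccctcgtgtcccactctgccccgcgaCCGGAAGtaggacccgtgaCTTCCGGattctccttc
Both windows held the same letters, but Med31 was the only Mediator gene called lower that had them. Med18 and Med30 had no promoter entry, and the promoter of Med23 lacked these letters. Other motifs were counted in the same way, with members counted once per gene and the background once per promoter entry. The CCAAT box stood in 37.5% of the 48 member genes and in 37.5% of all promoters. The TATA box, TATAAA, stood in 4.17% and 14.2%. Of 2 elements tied to interferon signalling, the letters TTCNNNGAA (GAS) stood in 16.7% and 8.87%. Of the 8 members with GAS letters 1 was called higher (Med17), 1 was called lower (Polr2b) and 6 were not called. Only the CCGGAAG letters are in capitals above. The letters GAAANNGAAA (ISRE) stood in 0 of 48 members and 3.92% of all promoters. The kappaB consensus, the site of NF-kappaB factors, stood in 0 of 48 and 4.18%. CCGGAAG overlapped 1 of these other motifs in 1 member, a GAS match in Polr2m. A match describes the letters only.

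All 57 genes passed the filter on low values (a mean over the 18 libraries of 1 TPM or above), and none was at 0 in any library. The median level in Vehicle was 25.8 TPM, and 37 of the 57 lay above the median tested gene. Polr2e, a subunit common to all 3 polymerases, was the most abundant at 295.9 ± 11.2 TPM (SD, n = 3). Polr3g, a subunit of RNA polymerase III known from stem cells and tumours, was the least abundant at 1.86 ± 0.124 TPM. Subunits of 1 enzyme were far from equal in level: the Vehicle means of the genes whose symbols begin with Polr2 spanned 11.7-fold.

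**Figure D1:**
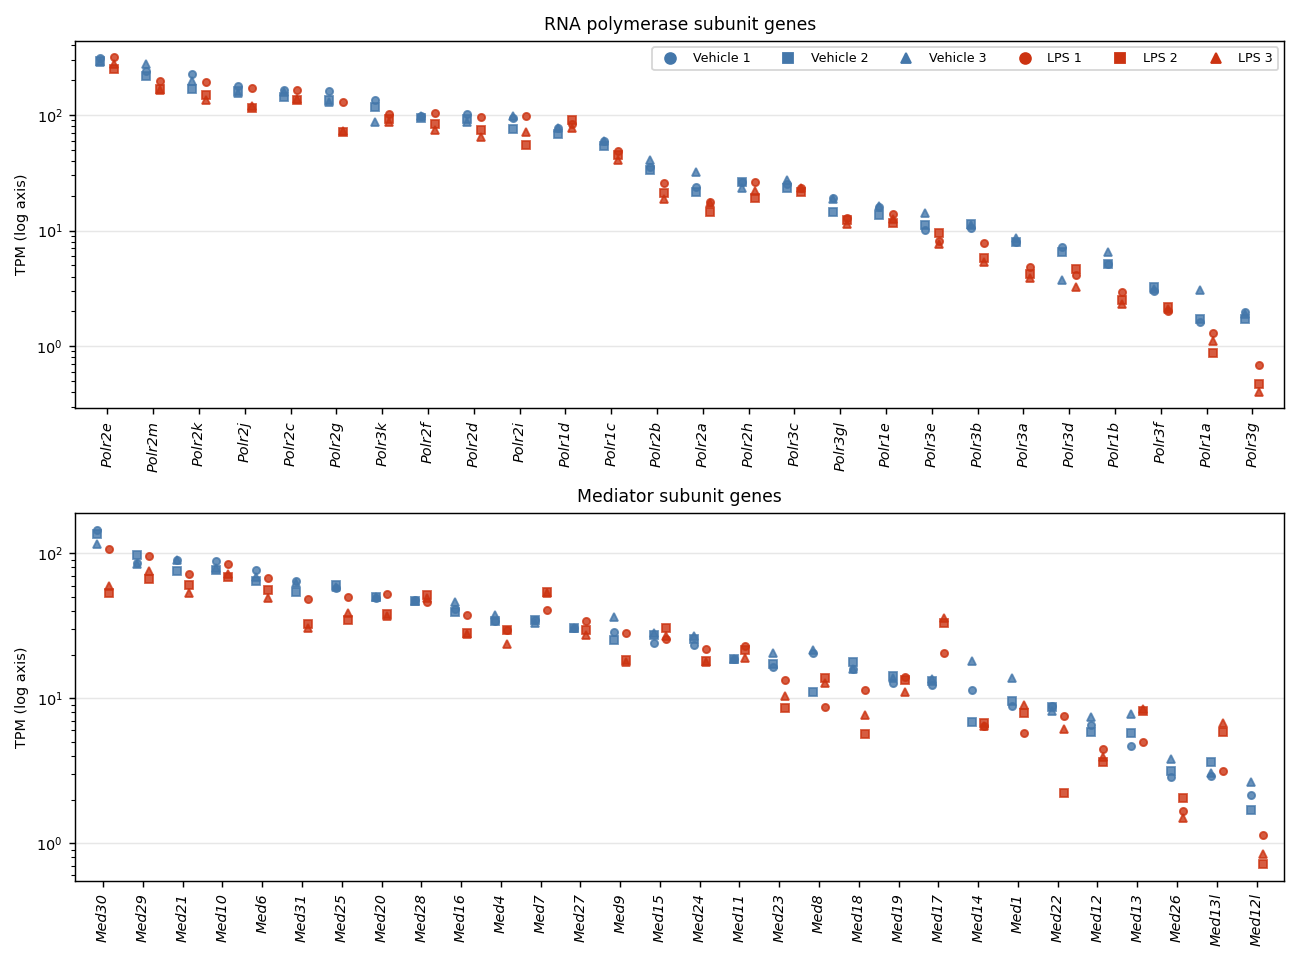
Expression of 56 of the 57 genes in TPM on a log axis, 1 panel for the polymerases and 1 for Mediator, in falling order of the Vehicle mean; each point is 1 numbered sample (mean of 3 libraries), Vehicle and LPS in separate colours. Points run from 0.403 TPM for Polr3g in LPS sample 3 to 314 TPM for Polr2e in LPS sample 1, and the kinase module genes lie between 1.69 and 7.78 TPM in the Vehicle samples.

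Levels differed widely between subunits of the same role. The subunits shared by all 3 enzymes had Vehicle means from 25.4 TPM (Polr2h) to 295.9 TPM (Polr2e). Those specific to RNA polymerase II had means from 25.8 TPM (Polr2a, its largest subunit) to 243 TPM (Polr2m, a protein that associates with the enzyme and competes with initiation factors). The subunits specific to RNA polymerase I and within the rule ran from 2.15 TPM (Polr1a) to 15.3 TPM (Polr1e). Under an older symbol and outside the rule, Znrd1 of RNA polymerase I had 40.4 TPM. Those specific to RNA polymerase III ran from 1.86 TPM (Polr3g) to 114 TPM (Polr3k). In Mediator the highest were Med30 at 133 TPM and Med29 at 89.1 TPM, both metazoan subunits between head and tail. The kinase module genes ran from 2.17 TPM (Med12l) to 6.60 TPM (Med12), below the Vehicle mean of every gene of the head, border and tail groups. The middle module overlapped them through Med26 at 3.28 TPM.

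LPS was compared with Vehicle by limma on log2(TPM + 1), with Benjamini-Hochberg adjustment over all 12393 tested genes and a call at an adjusted p under 0.05. Of the 57 genes, 1 was called higher (Med17) and 10 were called lower, where 7.17% of all tested genes were called higher and 22.2% lower (29.4% in either direction). The members' share of lower calls, 17.5%, was thus near the background. The median change of the members was -0.42 and that of all tested genes -0.38 (log2), so the members as a set lay close to the typical gene. By sign alone, 49 of the 57 changes were negative and 8 positive. In 28 genes all 3 LPS samples lay below all 3 Vehicle samples, which held for 47.1% of tested genes. In 4 genes (Polr1d, Med11, Med17 and Med7) they lay above, which held for 9.82% of tested genes. The counts rested on sample numbers 2 and 3. Without number 2 limma called 0 members, with 1 higher and 10 lower at an unadjusted p under 0.05. Without number 3 it called 0, with 1 and 2. Most calls over all 12393 tested genes were lost too. Limma called 419 of them higher and 296 lower without number 2, and 0 either way without number 3. Without the replicate block 2 members were called higher (Med17 and Med7) and 15 lower, beside 7.36% and 29.2% of all tested genes. Without the first library of Vehicle sample 3, whose values lay apart from the other 2 libraries of that sample, 1 was called higher and 6 lower. Of all tested genes 708 and 1699 were then called.

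TPM sums to a fixed total in each library, so a gene's value also depends on the rest of the transcriptome. Summed over the genes called higher, TPM was 50383 ± 1835 in the Vehicle samples and 173499 ± 54160 in the LPS samples (SD, n = 3 each). Those genes were picked for being higher in LPS, so the direction of this difference was fixed by the choice. The 57 genes summed to 2988 ± 143 and 2459 ± 328 TPM. After each library was scaled by its median ratio to the others, the median of all genes moved to -0.01 and that of the members to -0.03. Under that scaling limma called Med17 higher and 0 members lower, with 5 lower at an unadjusted p under 0.05. The background was then 6.89% higher and 3.71% lower. After quantile normalization the medians were -0.12 and -0.14, and limma again called Med17 higher and 0 members lower, with 9 lower at an unadjusted p under 0.05 and a background of 6.53% higher and 4.67% lower. The members' falls described below are therefore falls in the share of the transcript pool, and limma called none of these members lower under either scaling.

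**Figure D2:**
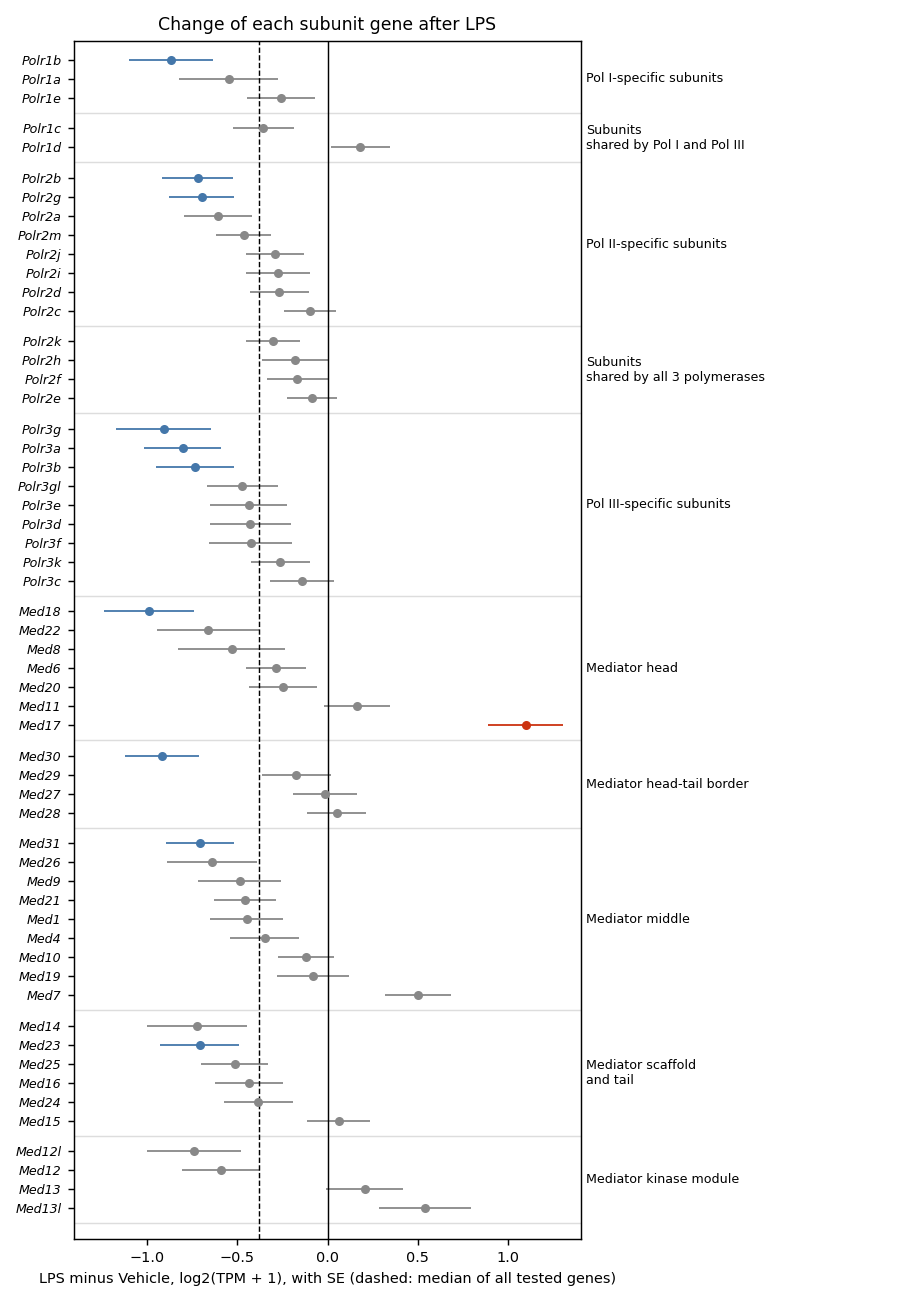
Change of each of 56 of the 57 genes on the log2(TPM + 1) scale, LPS minus Vehicle, with bars of 1 standard error from limma, red for a call higher, blue for lower and grey for none; the dashed line marks the median of all 12393 tested genes (-0.38). Med17 stands alone at the right at 1.09, and the called falls reach -0.99 (Med18).

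Med17, which lies in the Mediator head and contacts RNA polymerase II, was the 1 member called higher. It measured 12.3, 13.1 and 13.7 TPM in Vehicle samples 1, 2 and 3 and 20.5, 32.9 and 36.0 TPM in LPS samples 1, 2 and 3. The lowest LPS sample, number 1, lay well above the highest Vehicle sample. The Vehicle mean was 13.05 ± 0.668 TPM and the LPS mean 29.8 ± 8.17 TPM (SD, n = 3 each). The change was 1.09 ± 0.209 (log2, SE, limma adjusted p = 0.0161), and the differences within the numbered pairs were 0.69, 1.26 and 1.33. Relative to the typical gene it was larger, at 1.49 after median-ratio scaling (adjusted p = 0.034) and 1.42 after quantile normalization (adjusted p = 0.0300), both by limma. Med17 lost its call without sample number 2 (log2 change 1.01, limma adjusted p = 0.138) and without sample number 3 (0.98, adjusted p = 0.272). Limma called 0 of all tested genes without number 3. In RefSeq, Med17 overlapped no other gene. Its neighbour C8h11orf54, listed in the table under an older symbol, went from 53.5 to 31.0 TPM (log2 change -0.81 ± 0.200, SE, limma adjusted p = 0.0297).

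Within samples, Med17 moved from below the median of the other Mediator subunits in Vehicle to above it in LPS samples 2 and 3. In LPS sample 1 it stayed below. Its log2(TPM + 1) minus the median of the other 29 Mediator genes was -0.91, -0.92 and -0.98 in Vehicle. In LPS the same difference was -0.28, 0.60 and 0.88. Against Med18, another head subunit, the difference was -0.34, -0.41 and -0.19 in Vehicle and 0.82, 2.38 and 2.09 in LPS. These comparisons were chosen after the values were seen and were not tested. Med17 was picked for its rise and Med18 fell, so the direction of the differences was fixed by the choice. These are differences between genes of the same library, so they do not depend on the scaling of libraries apart from the pseudocount. In each of them LPS sample 1 was closest to Vehicle, as on the first principal component.

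**Figure D3:**
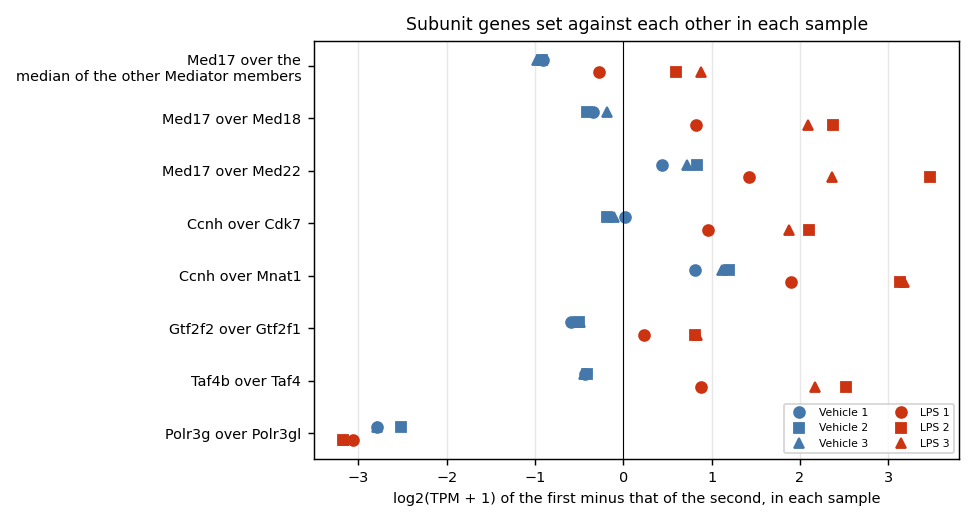
Difference in log2(TPM + 1) between 2 genes of the same sample, for Med17 and for partner pairs among the initiation factors; each point is 1 numbered sample. The comparisons were chosen after the values were seen. For Med17 against the median of the other Mediator genes the Vehicle points sit between -0.98 and -0.91 and the LPS points between -0.28 and 0.88.

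The head held both extremes of the Mediator complex. Med18, which forms a movable part of the head with Med20, went from 16.0, 17.8 and 16.0 TPM in Vehicle to 11.4, 5.64 and 7.72 TPM in LPS, and the groups did not overlap. Its change was -0.99 ± 0.249 (log2, SE, limma adjusted p = 0.0307). Its partner Med20 had means of 50.05 ± 0.454 TPM without LPS and 42.5 ± 8.65 TPM with it (SD, n = 3), with overlapping samples and an adjusted p of 0.314 by limma. Med6, the most abundant head gene, had 69.9 and 57.6 TPM (log2 change -0.28, limma adjusted p = 0.209). Med22 had 8.60 and 5.33 TPM with wide spread in LPS, where the samples read 7.60, 2.23 and 6.17 TPM, and was not called (log2 change -0.66, limma adjusted p = 0.106). Med8 and Med11 were not called either, at -0.53 and 0.16 (log2), so the head had 1 gene called higher and 1 called lower of 7.

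Of the 4 genes at the border of head and tail, Med30 fell and the other 3 were not called. Med30 measured 146, 136 and 116 TPM in Vehicle and 108, 53.1 and 59.1 TPM in LPS. Its change was -0.91 ± 0.206 (log2, SE, limma adjusted p = 0.0238), the smallest adjusted p among the falling members. Med27, Med28 and Med29 had log2 changes of -0.02, 0.05 and -0.17, and their Vehicle and LPS samples overlapped. Their levels were 30.5, 47.2 and 89.1 TPM in Vehicle.

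In the middle module, which links head and tail and contacts RNA polymerase II, 1 of 9 genes was called. Med31, a small conserved subunit, measured 64.1, 54.3 and 62.3 TPM in Vehicle and 48.3, 32.7 and 30.6 TPM in LPS (log2 change -0.71 ± 0.187, SE, limma adjusted p = 0.0351). The groups were apart in every sample. Med7, a scaffold of the middle module that binds Med31 and Med21, went the other way without a call. It measured 34.6, 34.8 and 33.2 TPM in Vehicle and 40.8, 53.9 and 53.3 TPM in LPS (log2 change 0.50, limma adjusted p = 0.0753). Without the replicate block Med7 was called higher (limma adjusted p = 0.0421). Med21, the most abundant middle gene, measured 85.2 and 62.0 TPM, with an adjusted p of 0.0816 by limma. Med1, the subunit that binds nuclear receptors, had 10.7 ± 2.68 and 7.55 ± 1.65 TPM (SD, n = 3), with overlapping samples. Med26, which helps recruit elongation factors, had 3.28 and 1.74 TPM (limma adjusted p = 0.0867).

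Among the 6 genes of the scaffold and tail, where many activators bind, Med23 fell. It measured 16.4, 17.4 and 20.6 TPM in Vehicle and 13.4, 8.61 and 10.4 TPM in LPS (log2 change -0.71 ± 0.218, SE, limma adjusted p = 0.0489). Med14, the backbone that joins the modules, had 11.4, 6.87 and 18.2 TPM in Vehicle, and its log2 change of -0.72 was not called (limma adjusted p = 0.0838). Med25, the most abundant tail gene, had 58.7 and 41.3 TPM (limma adjusted p = 0.0726). Med15 was at 26.5 and 27.7 TPM. Med16 and Med24 had log2 changes of -0.43 and -0.38, near the median of all genes.

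None of the 4 kinase module genes was called by limma, with 2 at an unadjusted p under 0.05, both with negative changes. The paralogs Med12 and Med12l, which activate the kinase, had log2 changes of -0.59 and -0.74 (limma adjusted p = 0.0745 and 0.0696). The paralogs Med13 and Med13l, which tether the module to Mediator, had positive changes of 0.21 and 0.54 (adjusted p = 0.459 and 0.136). Med13l measured 2.90, 3.65 and 3.05 TPM in Vehicle and 3.15, 5.84 and 6.76 TPM in LPS, so LPS sample 1 lay within the Vehicle range. Of the partner proteins, cyclin C (Ccnc) fell from 18.6 to 11.4 TPM (log2 change -0.65, limma adjusted p = 0.0448). The kinase Cdk19 had 4.92 and 4.40 TPM (limma adjusted p = 0.665), and its paralog Cdk8 was not analysed here.

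The polymerase genes had no rise called by limma (0 of 27 at an unadjusted p under 0.05 as well) and 6 falls, 22.2%, the same share as among all tested genes. RNA polymerase I had 1 called gene among the 3 specific to it and within the rule. Polr1b, its second-largest subunit, measured 5.12, 5.13 and 6.5 TPM in Vehicle and 2.96, 2.52 and 2.31 TPM in LPS (log2 change -0.87 ± 0.235, SE, limma adjusted p = 0.0366). Polr1a, the largest subunit, measured 1.62, 1.72 and 3.09 TPM and then 1.3, 0.873 and 1.11 TPM. Its groups did not overlap, but Vehicle sample 3 stood far above the other two and the change was not called (limma adjusted p = 0.154). Polr1e, which takes part in initiation, had 15.3 and 12.6 TPM. The subunits shared with RNA polymerase III, Polr1c and Polr1d, had log2 changes of -0.36 and 0.18. Of the polymerase genes within the rule, Polr1d alone had a positive change in TPM as deposited (73.6 ± 4.86 and 83.6 ± 6.14 TPM, SD, n = 3, limma adjusted p = 0.399). Subunits under older symbols, outside the rule, had positive changes too and are given below. Under median-ratio scaling other genes within the rule turned positive, among them Polr1e, Polr2e and Polr3k.

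For RNA polymerase II, 2 of the 8 specific genes fell. Polr2b, the second-largest subunit, measured 35.5, 33.7 and 41.0 TPM in Vehicle and 25.9, 21.2 and 18.7 TPM in LPS (log2 change -0.72 ± 0.198, SE, limma adjusted p = 0.0380). Polr2g, part of the stalk that binds the emerging transcript, measured 159.9, 135.6 and 128.8 TPM and then 128.6, 70.5 and 72.1 TPM. LPS sample 1 was just below the lowest Vehicle sample. Its log2 change was -0.69 ± 0.180 (SE, limma adjusted p = 0.0325), and without the replicate block it lost its call (adjusted p = 0.0571). Polr2d, its partner in the stalk, had 93.7 ± 7.20 and 78.5 ± 16.3 TPM (SD, n = 3) with overlapping samples.

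Polr2a, the catalytic subunit whose long tail is phosphorylated through the transcription cycle, measured 23.75, 21.7 and 32.0 TPM in Vehicle and 17.6, 14.5 and 17.2 TPM in LPS. The groups did not overlap, and the log2 change of -0.61 ± 0.189 (SE) just missed the threshold (limma adjusted p = 0.0509). Without the block it was called lower (adjusted p = 0.0400). Polr2m, the most abundant of the specific genes, had 243 ± 27.5 and 176 ± 16.1 TPM (SD, n = 3, limma adjusted p = 0.0588). Polr2c, Polr2i and Polr2j, small subunits of the core, had log2 changes from -0.29 to -0.10 with overlapping samples.

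None of the 4 subunits shared by the 3 enzymes was called by limma, and 0 were at an unadjusted p under 0.05. Polr2e had means of 295.9 ± 11.2 and 279.7 ± 32.2 TPM (SD, n = 3, log2 change -0.09, limma adjusted p = 0.633). Polr2f, Polr2h and Polr2k had log2 changes of -0.17, -0.18 and -0.30. All 4 changes were less negative than the median of all genes, and all 4 pairs of groups overlapped.

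**Figure D4:**
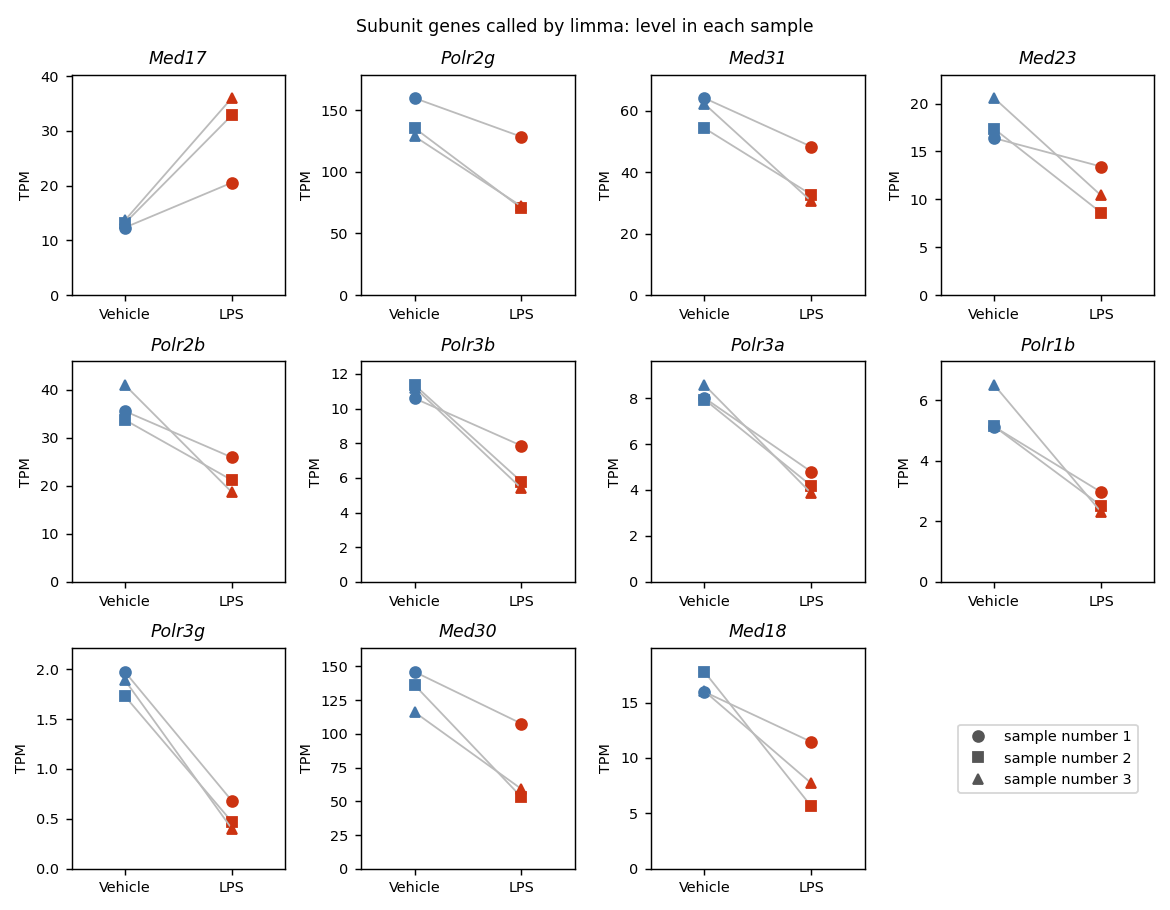
The 11 called genes, 1 panel each, in TPM on an axis from 0; each point is 1 numbered sample and a line joins samples of the same number. In every panel the 3 LPS samples lie on 1 side of the 3 Vehicle samples, above for Med17 and below for the other 10.

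RNA polymerase III had 3 called genes of 10. Polr3a, its catalytic subunit, measured 8.003, 7.94 and 8.57 TPM in Vehicle and 4.79, 4.18 and 3.86 TPM in LPS (log2 change -0.80 ± 0.211, SE, limma adjusted p = 0.0341). Polr3b, the second-largest subunit, measured 10.6, 11.4 and 11.2 TPM and then 7.85, 5.78 and 5.39 TPM (log2 change -0.73, limma adjusted p = 0.0444). In both genes all LPS samples lay below all Vehicle samples, and for Polr3b LPS sample 1 lay nearest to Vehicle.

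The third fall was in 1 of a pair of alternative subunits. Polr3g measured 1.97, 1.73 and 1.89 TPM in Vehicle and 0.683, 0.473 and 0.403 TPM in LPS (log2 change -0.91 ± 0.262, SE, limma adjusted p = 0.0420). At such levels the added 1 TPM makes the log2 change smaller than the ratio of the means. Polr3gl, the paralog found in most differentiated cells, had 17.4 ± 2.49 and 12.2 ± 0.703 TPM (SD, n = 3, log2 change -0.47, limma adjusted p = 0.102). Polr3gl was the more abundant paralog in all 6 samples: Polr3g minus Polr3gl, in log2(TPM + 1), was -2.79, -2.51 and -2.79 in Vehicle and -3.06, -3.17 and -3.16 in LPS. Of the others, Polr3k, a small catalytic-centre subunit, had 114 and 93.2 TPM, and Polr3c, Polr3d, Polr3e and Polr3f had log2 changes from -0.44 to -0.14 with no call. Of the 10 genes specific to RNA polymerase III, 7 had all LPS samples below all Vehicle samples, which held for 47.1% of tested genes.

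The large subunits were also compared with the rest, a grouping chosen after the values were seen and not tested. Of the 2 largest subunits of each polymerase (Polr1a, Polr1b, Polr2a, Polr2b, Polr3a and Polr3b), 4 of 6 were called lower, with log2 changes from -0.87 to -0.55 and a median of -0.73, where 22.2% of all tested genes were called lower. As with the other members, neither median-ratio scaling nor quantile normalization left any of these 6 called lower by limma. Of the other 21 polymerase genes 2 were called lower, and the median was -0.29. Level and change were weakly related over the 57 genes (Spearman's rho 0.28, against -0.01 over all tested genes, a description only, since these genes share libraries).

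**Figure D5:**
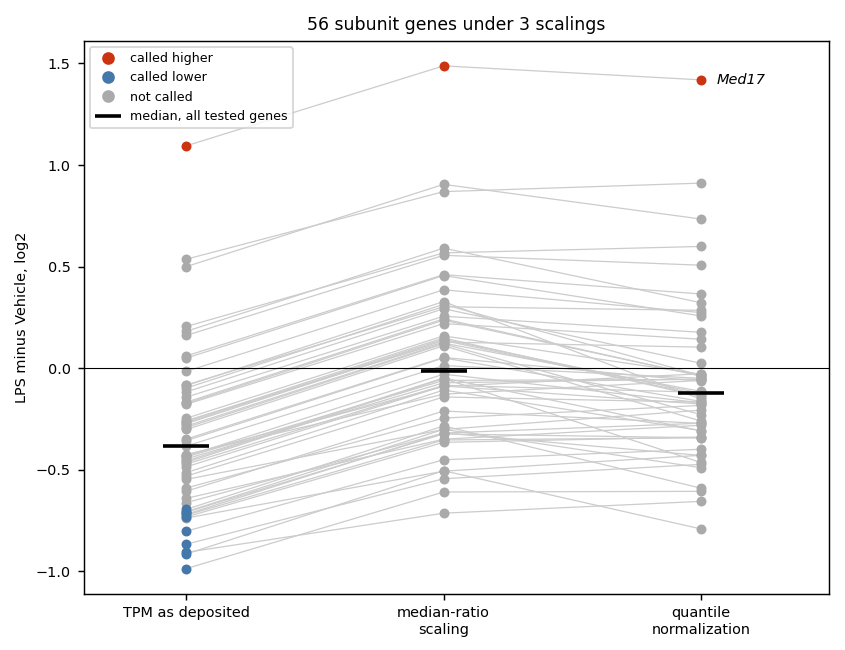
Log2 change of 56 of the 57 members under TPM, median-ratio scaling and quantile normalization, with the median of all tested genes marked for each. The members' median moves from -0.42 to -0.03 and -0.14 together with that of all genes, while Med17 stays at 1.09, 1.49 and 1.42.

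Some values may not belong to 1 gene alone. Overlap was judged from whole gene spans of build GRCr8, and neither strand, exons nor reads were examined. In RefSeq 16 of the 57 members overlapped another gene, among them 4 of the 11 called. Polr2g overlapped Zbtb3 (log2 change -0.86, limma adjusted p = 0.050) and Polr3g overlapped Mblac2 (-1.29, adjusted p = 0.0252), so the reads of these pairs may not be separable. Polr2b overlapped Igfbp7, whose change was positive at 0.39. Pseudogenes named after the gene were listed for 11 members, Polr2e and Polr3g among them.

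The general transcription factors place RNA polymerase II at promoters. Of 17 tested, 2 were called higher and 2 lower (11.8%), with a median of -0.40. Over all tested genes the shares were 7.17% higher and 22.2% lower, and the median was -0.38. Cyclin H (Ccnh), the cyclin of the TFIIH kinase Cdk7, measured 48.3, 41.7 and 45.0 TPM in Vehicle and 76.2, 138 and 112 TPM in LPS. All LPS samples lay above all Vehicle samples (log2 change 1.22 ± 0.228, SE, limma adjusted p = 0.0154). Its partners did not follow: Cdk7 had 48.0 and 33.3 TPM and a log2 change of -0.52 (limma adjusted p = 0.0623), and Mnat1, the third protein of that kinase, -0.48 (adjusted p = 0.0991). Within a sample, Ccnh minus Cdk7 in log2(TPM + 1) was 0.02, -0.19 and -0.10 in Vehicle and 0.96, 2.10 and 1.87 in LPS. This difference and the similar ones below were chosen after the values were seen and were not tested. Gtf2f2, the small subunit of TFIIF, rose from 26.1 ± 4.52 to 43.7 ± 7.93 TPM (SD, n = 3, log2 change 0.72, limma adjusted p = 0.0377). Gtf2f2 minus its partner Gtf2f1 went from between -0.60 and -0.49 to between 0.24 and 0.84. The TFIIH core genes Gtf2h4 and Gtf2h2 fell (-0.80 and -0.62, limma adjusted p = 0.0332 and 0.0422). Tbp, the TATA-binding protein, had 21.4 and 17.3 TPM (limma adjusted p = 0.246).

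TFIID, the factor that carries Tbp, had 1 of 14 tested genes called higher and 2 lower (14.3%), with a median of -0.41. The background was again 7.17% higher and 22.2% lower, with a median of -0.38. Taf4b rose from 3.98 ± 0.268 to 13.2 ± 5.72 TPM (SD, n = 3, log2 change 1.43, limma adjusted p = 0.0156). Its paralog Taf4 fell from 5.74 to 2.73 TPM (log2 change -0.86, limma adjusted p = 0.0365), and Taf9b fell from 22.9 to 12.3 TPM (-0.85, adjusted p = 0.0227). Taf4b minus Taf4 in log2(TPM + 1) was -0.44, -0.41 and -0.45 in Vehicle and 0.88, 2.52 and 2.17 in LPS, so Taf4 was the more abundant paralog in the 3 Vehicle samples and Taf4b in the 3 LPS samples. Ccnh, Gtf2f2 and Taf4b were also called higher under median-ratio scaling (limma adjusted p = 0.0379, 0.0405 and 0.0380), as Med17 was. Like Med17 they lost their calls without sample number 2 (limma adjusted p = 0.0875, 0.271 and 0.128) and without number 3 (0.272, 0.284 and 0.272). Their log2 changes were then 0.97, 0.54 and 1.19 without number 2 and 1.17, 0.76 and 1.34 without number 3. No tested gene was called without number 3.

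In TPM as deposited, of 33 tested genes for pausing and elongation, 0 were called higher by limma (1, Ell, at an unadjusted p under 0.05). Limma called 8 lower (24.2%), and the median was -0.26. Of all tested genes 7.17% were called higher and 22.2% lower, with a median of -0.38. Hexim1, which holds the elongation kinase P-TEFb inactive, fell from 30.4 ± 7.18 to 10.96 ± 3.37 TPM (SD, n = 3, log2 change -1.41, limma adjusted p = 0.0179). Its paralog Hexim2 fell from 12.1 to 5.01 TPM (-1.26, adjusted p = 0.0229). Under median-ratio scaling the Hexim1 change was -1.03 and missed the threshold (limma adjusted p = 0.0588). Cdk9, the kinase of P-TEFb, had 96.2 and 81.9 TPM (limma adjusted p = 0.287). Supt5h, a pausing and elongation factor, and Supt16h, a histone chaperone, fell (-0.71 and -0.79, limma adjusted p = 0.0375 and 0.0350). The elongation factor Ell2 had 12.5 and 11.1 TPM (limma adjusted p = 0.643). Of 15 phosphatases and assembly factors of RNA polymerase II, 4 fell (26.7%, median -0.49). Among them was the tail phosphatase Ctdp1, from 28.5 to 14.7 TPM (log2 change -0.93, limma adjusted p = 0.0270).

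The calls among the factors of the other polymerases were falls, beside a background of 22.2% lower and 7.17% higher. Of 7 initiation factors of RNA polymerase I, 2 fell (median -0.57). Ubtf, which opens ribosomal gene chromatin, went from 25.4 to 12.6 TPM (log2 change -0.98, limma adjusted p = 0.0215), and Rrn3, which recruits the enzyme, from 28.3 to 17.1 TPM (-0.69, adjusted p = 0.0374). In contrast, 3 RNA polymerase I subunits listed under older symbols and so outside the rule, Twistnb, Cd3eap and Znrd1, had positive changes of 0.23, 0.76 and 0.23. In TPM as deposited none was called by limma, with 1 at an unadjusted p under 0.05 (Cd3eap, 6.68 and 12.6 TPM, adjusted p = 0.0526). Of 17 genes on the list of RNA polymerase III initiation factors, which also holds the repressor Maf1 and the subunit Crcp, 4 fell (median -0.42). Those with the smallest p were Gtf3c1, a TFIIIC subunit, from 17.5 to 7.94 TPM (-1.13, limma adjusted p = 0.0211), and Brf1, a TFIIIB subunit, from 18.04 to 9.51 TPM (-0.87, adjusted p = 0.0297). Maf1, the repressor of RNA polymerase III, had 157 and 103 TPM (limma adjusted p = 0.0634). Of 9 mitochondrial transcription genes 4 fell (median -0.45), among them Mterf2 (22.1 to 7.92 TPM, log2 change -1.48, limma adjusted p = 0.0150) and the mitochondrial polymerase Polrmt (10.9 to 4.92 TPM, -1.08, adjusted p = 0.0374).

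The scaling touched these lists as it touched the subunits. Of the 117 tested genes on the lists, median-ratio scaling left 0 called lower by limma (15 at an unadjusted p under 0.05), and quantile normalization left 1, Mterf2 (log2 change -1.11, limma adjusted p = 0.0488). Higher calls were added: Ell under both scalings (limma adjusted p = 0.0457 and 0.0388), Gpn2 under median-ratio scaling alone (0.0448) and Cd3eap under quantile normalization alone (0.0496). Without sample number 2 or number 3, 0 of the 117 were called lower as well, with 15 and 8 at an unadjusted p under 0.05. Of all tested genes 296 and 0 were then called lower.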

How the data were processed

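RNA was measured in 18 libraries of microdissected cortical collecting ducts. The deposited table holds TPM per gene and library, made with STAR 2.7.9a and RSEM 1.3.3 on Rnor_6.0, per the submitters' processing notes. The annotation release is not given in the sources used here, nor is the read depth. The initial N of a column name was read as normal saline and L as LPS. There were 0 columns of other samples and 0 identical libraries. RSEM shares reads between similar transcripts by estimate.

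The 3 libraries of each numbered sample were averaged on the log2(TPM + 1) scale. A gene was tested if its mean reached 1 TPM (12393 of 32883) and the test was made by limma 3.58.1 in R 4.3.3, with sample number as a block, a variance trend, a two-sided moderated test and Benjamini-Hochberg adjustment. Residual degrees of freedom numbered 2, and the prior added 4.97. Changes of low genes are understated on this scale. The pairing comes from the design text: same-numbered samples correlated in their deviations from the group means at r = 0.0622, -0.0175 and 0.0686.

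The members and lists were chosen with earlier results of these data known. Values are given for called members, the largest subunits, the most abundant gene of each group, the 3 largest uncalled changes in each direction, and up to 4 called genes of each pathway list with fixed additions. Other genes were named to account for their group, after their values were seen. The differences between genes of the same sample were also chosen after the values were seen, and were not tested. Alternatives were 15 planned and 1 chosen after seeing the data, without the first library of Vehicle sample 3. Members with no row of their symbol, such as Polr2l and Cdk8, were not analysed here. The values of 1 of the 57 genes are counted but not reported here.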

Additional observations from a re-analysis of the deposited data

How the results depend on the processing

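Without the replicate block for the pairing limma called 15 members lower, 9 of them in common with the fit with the block, and 2 higher (Med17 and Med7). With all 18 libraries and an estimated correlation, 30 members were called lower and 3 higher, and 5295 of all genes were called lower. With the median of the libraries limma called 0 members in either direction (2 higher and 21 lower at an unadjusted p under 0.05) and 0 genes in all either way. With no filter on low values it called 0 members (2 and 20 unadjusted), 18 genes higher and 2 lower. Median-ratio scaling and quantile normalization left 0 members lower, with 460 and 579 genes lower in all, and the median Vehicle level of the members was 22.1 TPM under the first, against 25.8 TPM. Leaving out 1 sample number gave 0 to 2 members higher and 0 to 13 lower, and 0 to 1004 genes higher and 0 to 3595 lower in all. Without the first library of Vehicle sample 3, chosen after seeing the data, 6 members and 1699 genes were lower. Med17 was called in 12 of 16 alternatives, with log2 changes from 0.92 to 1.49 and limma adjusted p from 2.72e-05 to 0.272. Of the falling members, Med23 was called in 5 of 16, Polr3b in 6 of 16, Polr3g in 7 of 15, Polr2g in 8 of 16, Med18 and Med31 in 9 of 16, Polr1b in 9 of 15, and Polr2b, Polr3a and Med30 in 10 of 16. Of all 57 members, 20 turned from negative to positive under median-ratio scaling and 6 under quantile normalization, and 0 of these were called members. Among the genes named by rule, signs turned positive under median-ratio scaling for 8 (Med6 0.12, Polr1e 0.13, Polr3k 0.15, Polr2e 0.33, Cdk19 0.22, Cdk9 0.18, Ell2 0.25, Tbp 0.10), under quantile normalization for 4 (Polr1e 0.10, Cdk19 0.28, Ell2 0.24, Tbp 0.053) and for Ell2 without sample number 3 (leaving out 1 number gave -0.26 to 0.071). Apart from fewer samples in the fits that leave some out, and more genes tested without a filter, the cause was not tested.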
